A study of Canis lupus familiaris with 10 samples.

Results

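Genes that cause inherited retinal degeneration in dogs and humans were examined in canine retinas with advanced glaucoma. The set was defined by name, as disease genes that the rule places outside the rod and cone phototransduction cascades. Regulators of these cascades, such as GUCY2D, GUCA1A, GUCA1B, RCVRN and PDC, were kept in the set. The rule uses no measured value, although the names were picked with earlier results of these data known. It names 43 genes, of which 40 have at least 1 probe set (a group of short probes on the array that report 1 transcript) in the array annotation. These 40 genes have 70 probe sets of the 42924 on the array. A probe set was counted as expressed when its log2 intensity was above 7 in at least 2 samples, which left 48 probe sets of 34 genes, against 18416 probe sets and 7900 genes with a single symbol on the whole array. NR2E3, PRCD and RD3 had no probe set, and BBS1, CDHR1, FSCN2, GUCY2F, NPHP4 and RPGRIP1 had only probe sets below the expression minimum.

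Retinal RNA was profiled from 5 client-owned dogs with spontaneous primary glaucoma and from 5 control dogs without ophthalmic findings, with 1 Affymetrix canine array per dog. The glaucoma group held 2 Shiba Inus (the younger aged 5 and the older 14 years), 2 Basset Hounds (the younger aged 5 and the older 7 years) and 1 Dalmatian aged 9 years, all treated with topical drugs that lower the intraocular pressure. The control group held 5 Beagles, each aged 4 years. No breed occurred in both groups and every glaucomatous dog was older than the controls, so that disease, breed, age and medication cannot be told apart.

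Photoreceptors carry their light-sensitive discs in an outer segment, which is joined to the cell body by a narrow connecting cilium. Genes of inherited retinal degeneration encode, among others, proteins that shape the discs, set calcium and cyclic GMP, recycle retinoids, fill the extracellular matrix around the outer segments, and build or supply the cilium. Several are known as breed-specific disease genes in dogs, including SLC4A3 in Golden Retrievers, STK38L in Norwegian Elkhounds, CCDC66 in Schapendoes, FAM161A in Tibetan Spaniels and ADAM9 in Glen of Imaal Terriers.

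The arrays were alike in overall signal, with median intensities of 78.0 to 80.7 in glaucoma and 77.1 to 80.6 in controls. Probe sets above the expression minimum numbered 16016 to 16313 per glaucomatous retina and 15910 to 16215 per control retina. As a sign of RNA quality, signal from the 3' end of actin and GAPDH was divided by that from the 5' end. This ratio, which is higher in degraded RNA, was 0.78 to 1.14 in glaucoma and 0.94 to 1.52 in controls on the log2 scale. Genes of the rod cascade summed to an intensity of 12531 to 79036 in glaucoma (43088 to 79036 without the younger Shiba Inu) and 64862 to 88991 in controls. The retina of the younger Shiba Inu stood apart. Its 14 expressed markers of the retinal pigment epithelium, of 15 listed, summed to an intensity of 70409, against 12580 to 33230 in the other glaucomatous retinas, while control 4 reached 47784 and the other controls 8596 to 10301. Values without the younger Shiba Inu are given beside those that rested on it most. The tissue is bulk retina, in which fewer cells of a type and less RNA per cell cannot be told apart.

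Of the 34 expressed genes, 2 were lower in glaucoma, 0 were higher, and 32 did not pass the test (limma, adjusted p under 0.05 over all expressed probe sets). The background over all 7900 genes was 8.65% lower and 8.04% higher, so the set was called no more often than the array as a whole. By probe set, 2 of the 48 were lower and 0 higher, beside 9.4% lower and 7.58% higher of all expressed probe sets. The sign of the differences was less even. In 31 of the 34 genes (91.2%) the mean was below that of the controls, whereas 50.9% of all genes lay on that side. Without the younger Shiba Inu, 25 of the 34 did. The median log2 difference was -0.45 for the set and -0.01 for all genes. Without the younger Shiba Inu the median of the set was -0.17, 2 genes were lower (9.53% of all genes) and 1, IMPG2, was higher (7.89% of all genes).

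Separation of the groups was rarer still. Only SLC4A3 had every glaucomatous retina below every control (1 of 34 genes, background 7.84%), and 0 genes had every glaucomatous retina above (background 7.29%). The same counts of 1 and 0 held without the younger Shiba Inu, beside backgrounds of 9.98% and 8.5%. For the 12 genes with several expressed probe sets, the probe sets had the same sign in all 12, and their differences within a gene spanned at most 0.26. The call was the same only in that none of these probe sets passed the test. SLC4A3 and STK38L each had a single expressed probe set, so their calls could not be compared between probe sets.

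**Figure D1:**
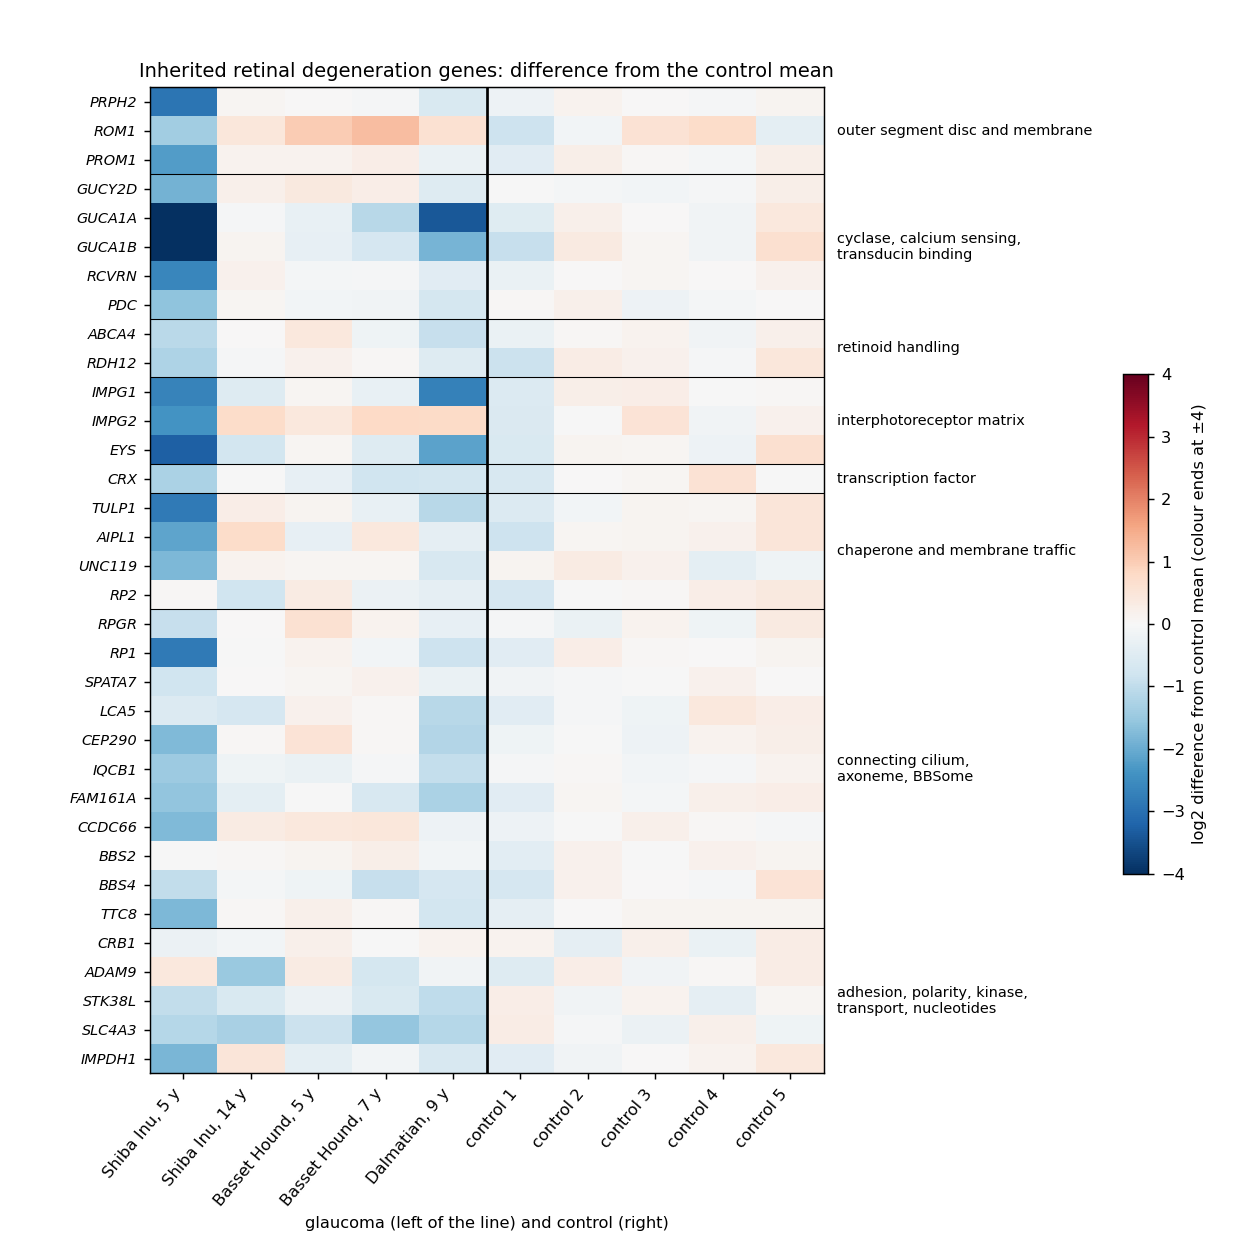
Log2 difference of each expressed inherited retinal degeneration gene (rows, grouped by role) from the control mean, for the 5 glaucomatous retinas left of the line and the 5 controls right of it; blue is below and red above the control mean. The column of the younger Shiba Inu (median -1.69) is blue in nearly every row and that of the Dalmatian (median -0.66) in most. The other 3 glaucomatous retinas have medians of -0.06 to 0.09, within the control medians of -0.44 to 0.21. Some of their rows lie farther out, such as SLC4A3, ADAM9 in the older Shiba Inu (-1.47) and ROM1 in the older Basset Hound (1.22).

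SLC4A3 was the most clearly reduced gene of the set. It encodes anion exchanger 3, which swaps chloride for bicarbonate across the plasma membrane and has been found in Müller glia and horizontal cells of the rodent retina. Its log2 intensity was 7.28 and 7.11 in the younger and older Shiba Inus, 7.56 and 6.85 in the younger and older Basset Hounds and 7.25 in the Dalmatian, against 8.69, 8.35, 8.16, 8.60 and 8.22 in controls 1 to 5. The groups did not overlap, and the lowest control lay above the highest glaucomatous retina. The mean was 7.21 ± 0.26 in glaucoma and 8.40 ± 0.24 in controls (SD, n = 5 each), a difference of -1.20 (95% interval -1.53 to -0.86, adjusted p = 0.00052 from limma), or 2.29-fold lower. The difference without the younger Shiba Inu was -1.21 (adjusted p = 0.000765 from limma).

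STK38L encodes a serine/threonine kinase of the NDR family. Its log2 intensity was 8.67 and 9.04 in the younger and older Shiba Inus, 9.44 and 9.07 in the younger and older Basset Hounds and 8.66 in the Dalmatian, against 9.91, 9.52, 9.82, 9.32 and 9.75 in the controls. Only the younger Basset Hound reached into the control range, where it lay above control 4. The mean was 8.98 ± 0.33 in glaucoma and 9.66 ± 0.24 in controls (SD, n = 5 each). It was thus 1.61-fold lower, by -0.69 on the log2 scale (SE 0.17, adjusted p = 0.0204 from limma). This call was close to the threshold and was lost without the Dalmatian (difference -0.61, adjusted p = 0.0526) or without control 5 (difference -0.67, adjusted p = 0.0516, both from limma). It was also lost with the 3' to 5' ratio as a covariate (difference -0.49, adjusted p = 0.211), with age as a covariate (-0.65, adjusted p = 0.102) and without both Shiba Inus (-0.61, adjusted p = 0.0653, all from limma). The remaining probe sets of STK38L were below the expression minimum.

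Both genes belong to the mixed group of adhesion, polarity, kinase, transport and nucleotide synthesis genes, of which all 5 were expressed. IMPDH1, an enzyme of guanine nucleotide synthesis, had a difference of -0.50 (adjusted p = 0.357 from limma), and -0.17 without the younger Shiba Inu. CRB1, a polarity protein of the outer limiting membrane, was at 7.73 ± 0.17 in glaucoma and 7.74 ± 0.30 in controls (SD, n = 5 each). ADAM9, a membrane-anchored metalloprotease, had its highest value among the 10 retinas, 8.62, in the younger Shiba Inu and its lowest, 6.72, in the older one. In its other expressed probe set the older Shiba Inu was again lowest (5.38). The younger one (6.83) was there within the control range of 5.87 to 7.29.

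**Figure D2:**
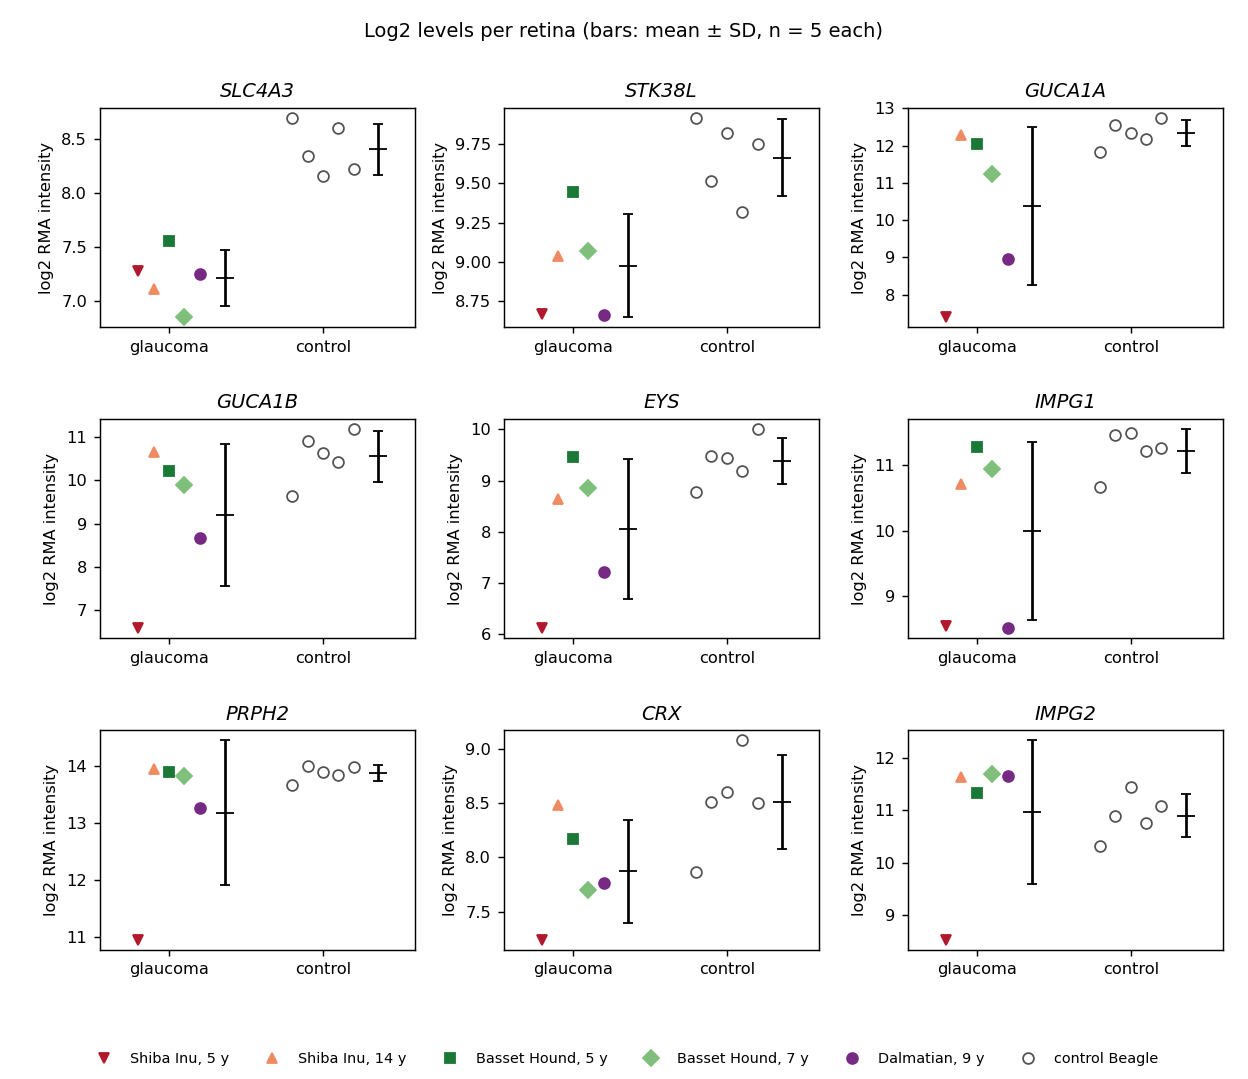
Log2 RMA intensity (vertical axes, which differ between panels and do not start at 0) of 9 inherited retinal degeneration genes in each of 5 glaucomatous retinas (filled symbols, by dog) and 5 control retinas (open circles), with the mean ± SD of each group as bars. For SLC4A3 all glaucomatous retinas lie below all controls, whereas for GUCA1A, GUCA1B, EYS and IMPG1 the younger Shiba Inu and the Dalmatian lie far below the other 3.

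The largest differences that did not pass the test were in genes whose glaucomatous retinas disagreed. GUCA1A and GUCA1B encode the guanylate cyclase activating proteins, which switch on cyclic GMP synthesis as calcium falls after light. The log2 intensity of GUCA1A was 7.40 and 12.29 in the younger and older Shiba Inus, 12.05 and 11.24 in the younger and older Basset Hounds and 8.94 in the Dalmatian, against 11.84, 12.55, 12.35, 12.19 and 12.75 in the controls. Relative to the control mean it was 30.7-fold lower in the younger Shiba Inu and 10.5-fold lower in the Dalmatian, while the older Shiba Inu and the younger Basset Hound were inside the control range. The group difference was -1.95 (SE 0.83, adjusted p = 0.128 from limma), and without the younger Shiba Inu it was -1.21 (adjusted p = 0.173 from limma).

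GUCA1B had log2 intensities of 6.58, 10.66, 10.21, 9.89 and 8.68 in the glaucomatous retinas, in the order younger and older Shiba Inu, younger and older Basset Hound and Dalmatian, against 9.62, 10.90, 10.63, 10.42 and 11.18 in the controls. The same 2 dogs were below every control, 15.7-fold and 3.67-fold below the control mean, and the other 3 were within the control range. The group difference was -1.35 (SE 0.67, adjusted p = 0.191 from limma), and -0.69 without the younger Shiba Inu.

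The other genes of cyclase, calcium sensing and transducin binding were GUCY2D, the photoreceptor guanylate cyclase, RCVRN, the calcium sensor recoverin that restrains rhodopsin kinase, and PDC, the transducin-binding protein phosducin. Their group differences were -0.31, -0.61 and -0.50, and without the younger Shiba Inu 0.09, -0.11 and -0.22. With all dogs 0 of the 5 expressed genes of this role passed the test. All 5 were below every control in both the younger Shiba Inu and the Dalmatian. For RCVRN this depended on the probe set, since in its other expressed probe set the Dalmatian (11.88) was above control 1 (11.70). RCVRN was at 10.46 in the younger Shiba Inu and at 12.63 to 13.26 in the other glaucomatous retinas, against 12.81 to 13.26 in the controls.

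Genes of the interphotoreceptor matrix and extracellular space did not share 1 pattern. IMPG1, a hyaluronan-binding proteoglycan of this matrix, had log2 intensities of 8.54 and 10.70 in the younger and older Shiba Inus, 11.28 and 10.93 in the younger and older Basset Hounds and 8.51 in the Dalmatian, against 10.66, 11.46, 11.49, 11.21 and 11.26 in the controls. The younger Shiba Inu and the Dalmatian were 6.41-fold and 6.56-fold below the control mean, and the other 3 dogs overlapped the controls. The group difference was -1.23 (SE 0.54, adjusted p = 0.142 from limma).

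EYS encodes a large extracellular protein of the photoreceptor layer. It was at 6.11, 8.64, 9.47, 8.86 and 7.22 in the glaucomatous retinas, in the same order of dogs, against 8.77, 9.49, 9.44, 9.18 and 10.004 in the controls. Here the older Shiba Inu was also just below the lowest control, while the Basset Hounds were not. The group difference was -1.32 (SE 0.55, adjusted p = 0.126 from limma), and -0.83 without the younger Shiba Inu.

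IMPG2, the other proteoglycan of the matrix, had its low value in a single dog. Its log2 intensity was 8.52 in the younger Shiba Inu and 11.63, 11.34, 11.70 and 11.66 in the older Shiba Inu, the younger and older Basset Hounds and the Dalmatian, against 10.32, 10.90, 11.44, 10.77 and 11.09 in the controls. The older Shiba Inu, the older Basset Hound and the Dalmatian were above every control, including the dog in which IMPG1 was at its lowest. With all dogs the difference was 0.07 (SE 0.55, adjusted p = 0.947 from limma), and without the younger Shiba Inu it was 0.68 (SE 0.20, adjusted p = 0.0381 from limma). The single values of IMPG2, PRPH2 and CRX are shown by a choice made after they were seen.

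Among genes of the outer segment disc and membrane, 3 of 6 were expressed and 0 passed the test. PRPH2, the tetraspanin peripherin-2 that bends the disc rim, was at 10.96 in the younger Shiba Inu and at 13.95, 13.89, 13.82 and 13.27 in the other glaucomatous retinas, in the order above, against 13.66, 14.00, 13.90, 13.83 and 13.98 in the controls. Only the younger Shiba Inu, 7.53-fold below the control mean, and the Dalmatian were outside the control range. ROM1, the partner tetraspanin of the rim, was at 8.60 in the younger Shiba Inu and at 10.43 to 11.20 in the other 4 glaucomatous retinas, against 9.14 to 10.72 in the controls. Its difference was 0.38 with all dogs (adjusted p = 0.615) and 0.83 without the younger Shiba Inu (adjusted p = 0.0947, both from limma). PROM1, a membrane protein at the base of the discs, was at 10.15 in the younger Shiba Inu and at 12.14 to 12.66 in the other glaucomatous retinas, against 11.96 to 12.63 in the controls.

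CRX, the homeobox transcription factor that drives many photoreceptor genes, had log2 intensities of 7.25 and 8.48 in the younger and older Shiba Inus, 8.17 and 7.70 in the younger and older Basset Hounds and 7.76 in the Dalmatian, against 7.86, 8.51, 8.60, 9.08 and 8.50 in the controls. The older Basset Hound, the Dalmatian and the younger Shiba Inu were below every control. The mean was 7.87 ± 0.47 in glaucoma and 8.51 ± 0.43 in controls (SD, n = 5 each), and the difference was -0.64 (SE 0.26, adjusted p = 0.111 from limma). Of 10 other photoreceptor transcription factors, 7 were expressed and 0 passed the test, with a median difference of -0.22, and -0.13 without the younger Shiba Inu.

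The retinoid genes were ABCA4, the flippase that clears retinal from the discs, and RDH12, a dehydrogenase that reduces it. Their differences were -0.35 and -0.31 (adjusted p = 0.387 and 0.517 from limma), and -0.17 and -0.08 without the younger Shiba Inu. Among 4 genes of chaperoning and membrane traffic the differences were -0.77 for TULP1, which acts in transport to the outer segment, -0.44 for UNC119, a carrier of acylated proteins such as transducin, -0.33 for AIPL1, the chaperone of the cone and rod phosphodiesterase, and -0.20 for RP2, which helps release such cargo at the cilium. None of the 4 passed the test. Without the younger Shiba Inu the differences were -0.25 for TULP1, -0.09 for UNC119, 0.12 for AIPL1 and -0.27 for RP2. TULP1 was 7.08-fold below the control mean in the younger Shiba Inu, whereas RP2 was at 7.88 in that dog, inside its control range of 7.16 to 8.20.

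The genes of the connecting cilium, the axoneme and the BBSome, a protein coat that carries membrane proteins in cilia, were the largest role. Of 14 genes 11 were expressed, 0 passed the test in either direction, and the median difference was -0.44 with all dogs and -0.14 without the younger Shiba Inu. FAM161A, a microtubule-binding protein of the cilium, had the largest difference of them. Its log2 intensity was 8.98 and 10.18 in the younger and older Shiba Inus, 10.56 and 9.93 in the younger and older Basset Hounds and 9.31 in the Dalmatian, against 10.12, 10.64, 10.48, 10.76 and 10.83 in the controls. Both the older Shiba Inu and the younger Basset Hound overlapped the controls, and the difference was -0.77 (SE 0.28, adjusted p = 0.0797 from limma). Without the younger Shiba Inu it was -0.57 (adjusted p = 0.119 from limma). The younger Basset Hound was the glaucomatous retina closest to the control mean for both FAM161A and EYS. Without that dog FAM161A passed, at -0.97 (adjusted p = 0.0238), and so did EYS, at -1.67 (adjusted p = 0.0481, both from limma). More of all genes were also lower in that fit than with all dogs. Neither gene passed as any other single dog was left out.

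RP1, a microtubule protein of the axoneme, was at 9.81 in the younger Shiba Inu and at 11.79 to 12.78 in the other glaucomatous retinas, against 12.17 to 12.91 in the controls. IQCB1, a nephrocystin of the cilium base, was lower than every control in 4 of 5 glaucomatous retinas, and its difference was -0.58 (adjusted p = 0.122 from limma). In its other expressed probe set only the younger Shiba Inu (5.33) and the Dalmatian (6.06) were below every control (6.68 to 7.32). Of the BBSome subunits, BBS2 was at 10.62 to 10.96 in glaucoma and 10.32 to 10.90 in controls, and its difference was 0.05. The differences of BBS4 and TTC8 were -0.57 and -0.44, and neither passed the test. RPGR, the X-linked regulator of the cilium, had a difference of -0.10 and CEP290, which links membrane and axoneme at the transition zone, of -0.46. Without the younger Shiba Inu the differences were -0.20 for RP1, -0.36 for IQCB1, -0.46 for BBS4, -0.10 for TTC8, 0.11 for RPGR and -0.14 for CEP290.

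**Figure D3:**
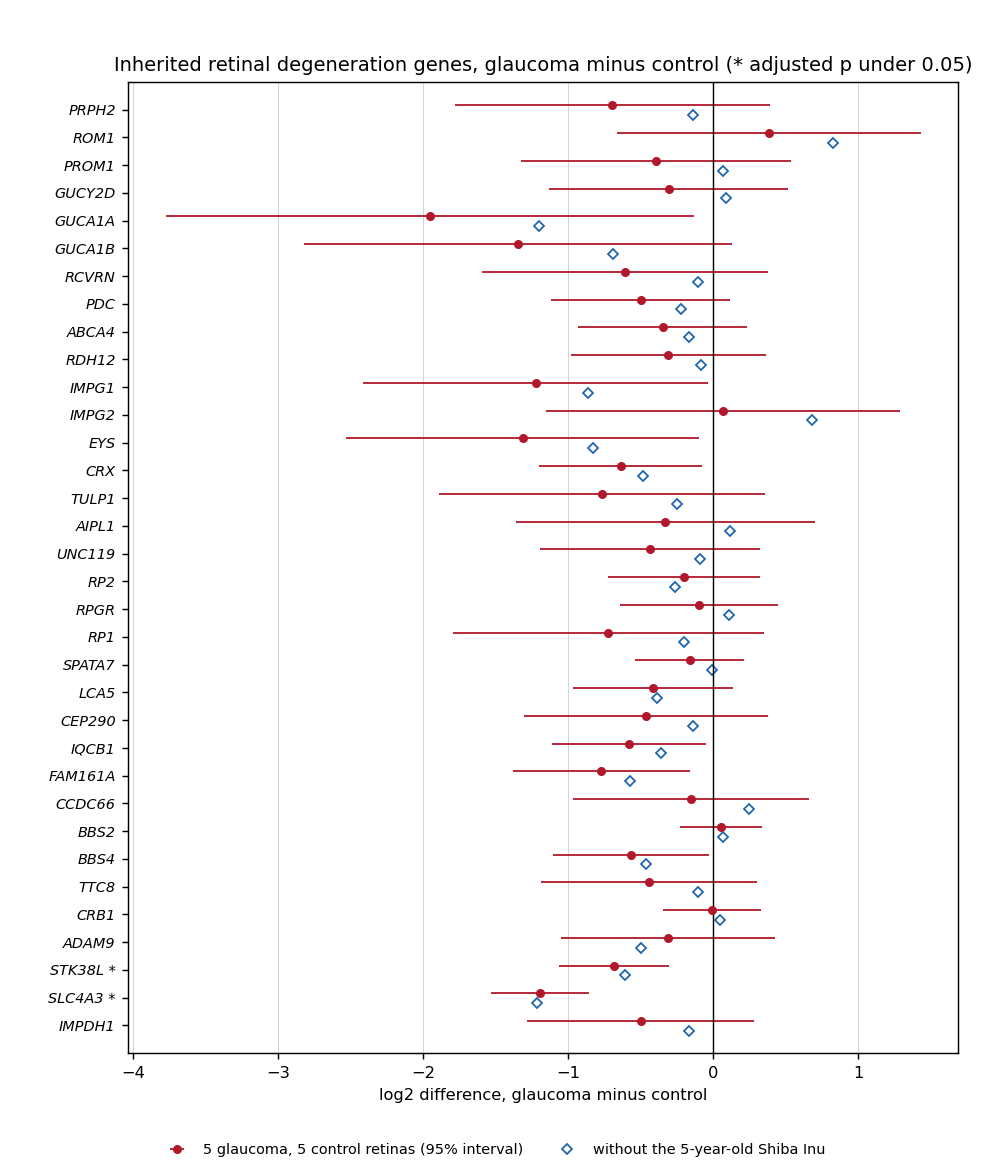
Log2 difference, glaucoma minus control (horizontal axis), of the 34 expressed genes in order of role, with 95% limma intervals for 5 against 5 retinas (red) and the difference without the younger Shiba Inu (open diamonds). SLC4A3 and STK38L, marked with an asterisk, passed the test, most other intervals include 0, and most diamonds lie closer to 0 than the red points.

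The spread of the set was larger among glaucomatous retinas. The median SD of its genes was 0.84 in glaucoma and 0.29 in controls, against 0.26 and 0.18 for all genes. Without the younger Shiba Inu the median SD in glaucoma was 0.40 for the set and 0.22 for all genes. The SD was larger in glaucoma in 31 of the 34 genes (91.2%), and in 76.1% of all genes. By dog, the median difference from the control mean was -1.69 in the younger Shiba Inu and 0.01 in the older one, 0.09 and -0.06 in the younger and older Basset Hounds and -0.66 in the Dalmatian, while the controls ranged from -0.44 to 0.21. The 2 Shiba Inus, dogs of 1 breed, lay far apart.

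Counting genes below every control gave the same picture of 2 dogs apart. In the younger Shiba Inu 30 of the 34 genes (88.2%) were below every control, and in the Dalmatian 24 (70.6%), where all genes gave 35.6% and 34.4%. In the older Shiba Inu and the younger and older Basset Hounds, 7, 2 and 7 of the 34 were, where all genes gave 29.6%, 21.4% and 26.0%. All 24 genes below the controls in the Dalmatian were also below them in the younger Shiba Inu, and 15 of these were below in none of the other 3 dogs. RP2, BBS2, CRB1 and ADAM9 were the 4 genes not below the controls in the younger Shiba Inu. Genes above every control were fewest in the younger Shiba Inu (ADAM9) and the Dalmatian (IMPG2), with 1 each (2.94% of the 34 in either dog, where all genes gave 33.2% and 30.4%). They numbered 5, 8 and 6 (14.7%, 23.5% and 17.6%) in the older Shiba Inu and the younger and older Basset Hounds, where all genes gave 24.5%, 27.9% and 24.4%. Each gene was counted by its expressed probe set with the highest mean. Another expressed probe set placed some of these retinas inside the control range, as for RCVRN, IQCB1 and ADAM9.

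With all dogs, the listed genes of the rod and cone phototransduction cascades, which the set leaves out, had medians farther below 0 than the set. Of 12 rod cascade genes 10 were expressed and 0 passed the test, with a median difference of -0.78. Without the younger Shiba Inu the rod median was -0.17, the same as that of the set. By dog, the rod median was -3.47 in the younger Shiba Inu and -0.62 in the Dalmatian, -0.04 to 0.03 in the other 3 glaucomatous retinas, and -0.38 to 0.20 in the controls. Of 12 cone cascade genes 9 were expressed and 3 were lower: OPN1SW, the short-wavelength opsin (-3.00), GNGT2, the cone transducin gamma subunit (-1.95), and PDE6C, the catalytic subunit of cone phosphodiesterase (-1.49). The cone median was -1.23, and -1.04 without the younger Shiba Inu. It was below the control range of -0.10 to 0.25 in all 5 glaucomatous retinas, at -2.20 and -0.66 in the younger and older Shiba Inus, -0.30 and -1.10 in the younger and older Basset Hounds and -2.32 in the Dalmatian. The inherited degeneration genes followed the rod pattern by dog, in that the other 3 dogs stayed near the controls. The differences between the lists were not tested.

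**Figure D4:**
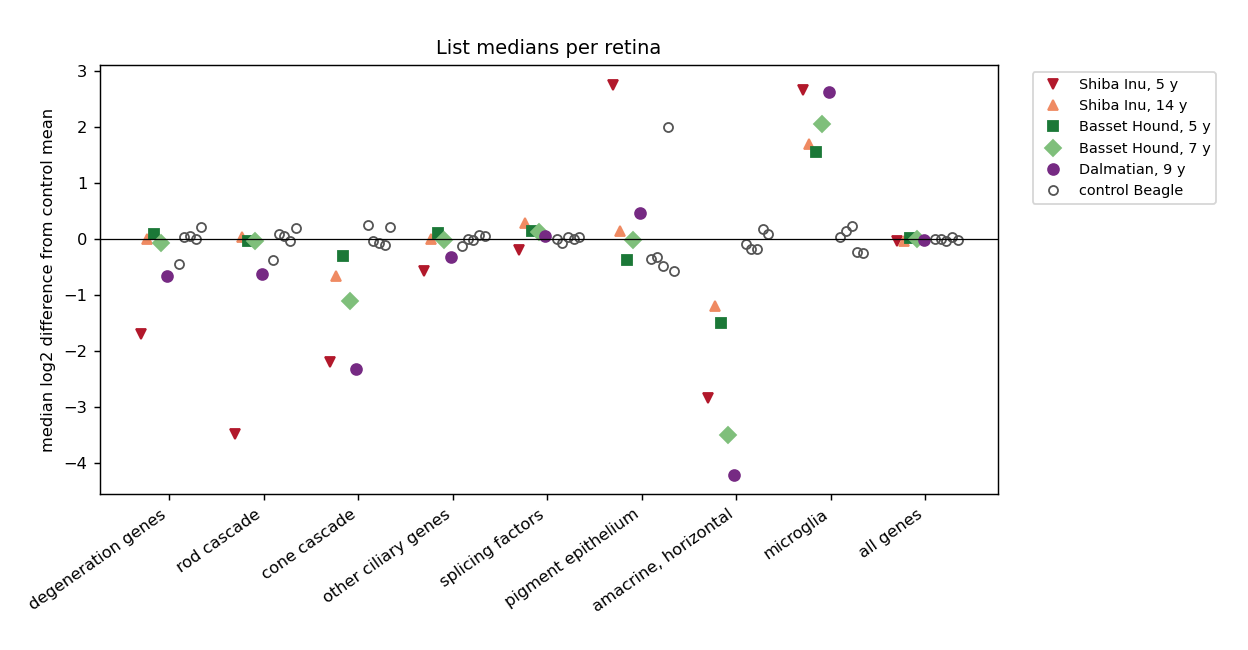
Median log2 difference from the control mean (vertical axis) over the expressed genes of each list, for each of 5 glaucomatous retinas (filled symbols) and 5 control retinas (open circles). In the inherited degeneration genes and the rod cascade only the younger Shiba Inu and the Dalmatian lie below the controls, in the cone cascade all 5 glaucomatous retinas do, and for all genes every retina lies within 0.04 of 0.

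Other inherited disease genes of the retina showed smaller medians. Of 34 further ciliary disease genes 22 were expressed, with a median of -0.19, and -0.06 without the younger Shiba Inu. ARL3, a small GTPase of ciliary cargo release, was lower (-0.61, adjusted p = 0.0433) and INVS, a nephrocystin, was higher (0.43, adjusted p = 0.0412, both from limma), while 0 were lower and 2 higher without the younger Shiba Inu. Of 9 splicing factor disease genes 7 were expressed, with a median of 0.09 (0.13 without the younger Shiba Inu), and CWC27 was lower (-0.44, adjusted p = 0.0137 from limma). Without the younger Shiba Inu, 1 splicing factor gene was lower and 1 higher. A list of 12 Usher syndrome symbols held ADGRV1 and WHRN also under their older names, GPR98 and DFNB31. Of these symbols 8 were expressed, and MYO7A (0.76) and CLRN1 (0.71) were higher. In a mixed list of 50 other disease genes 32 were expressed, 2 were lower and 4 higher, and 3 and 3 without the younger Shiba Inu. Its largest changes were TRPM1, the cation channel of ON bipolar cells (-2.78), TIMP3, a metalloprotease inhibitor (1.62), and EFEMP1, a fibulin (1.45).

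Markers of some other cell types moved with the groups. All 5 expressed amacrine and horizontal cell markers, of 10 listed, were lower, with summed intensities of 268 to 2291 in glaucoma and 4749 to 6102 in controls, and so were all 4 expressed of 9 bipolar cell markers. Of 8 expressed ganglion cell markers 5 were lower and 1, SNCG, was higher (2.52, adjusted p = 0.000195 from limma). Without the younger Shiba Inu, 6 were lower and 1 higher. The paper lists SNCG among the reduced genes, on the basis of a different, dimmer probe set. The direction of SNCG thus depended on the probe set, and its call is no sign that ganglion cell transcripts rose. All 9 expressed of 11 microglia and macrophage markers were higher, with sums of 8196 to 19105 in glaucoma and 1975 to 2935 in controls. Of 10 markers of Müller glia and astrocytes 4 were higher, and of 5 expressed markers of endothelium and pericytes 2 were, or 1 without the younger Shiba Inu. Of 14 expressed pigment epithelium markers 1, SERPINF1, was higher, and by dog their median was 2.76 in the younger Shiba Inu, -0.38 to 0.46 in the other glaucomatous retinas, 2.01 in control 4 and -0.56 to -0.32 in the other controls. Control 4 had a median of 0.00 for the inherited degeneration genes, within the range of the other controls. Without both the younger Shiba Inu and control 4, the median difference of the set was -0.20, 2 genes were lower, and 1, ROM1, was higher (1.01, adjusted p = 0.0452 from limma). Of all 7712 genes in that fit, 555 were lower and 562 higher. The part of these cell types in the differences of the set was not tested.

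The 22 probe sets of the set that stayed below the expression minimum were not in the counts above. The 9 of them that belong to BBS1, CDHR1, FSCN2, GUCY2F, NPHP4 and RPGRIP1 had control means of 5.37 to 6.64 and differences of -0.38 to 0.22. With no expression minimum, 40 genes entered the fit and SLC4A3 and STK38L were again the 2 called. Of all 15115 genes in that fit, 742 were lower and 684 higher.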

How the data were processed

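Total RNA from 10 retinas was labelled and hybridized to Affymetrix canine arrays, 1 per dog. The authors normalized the arrays with RMA (background subtraction, quantile normalization and probe set summary), and the deposited values are intensities on a linear scale, of which log2 was taken. The 111 array control probe sets were left out. Groups, breeds and ages were taken from the sample labels; the ages of the older Shiba Inu and the Dalmatian differ from those in the methods. Genes were named through the platform annotation, from probe sets with a single symbol. A gene was represented by its expressed probe set with the highest mean. Differences between glaucoma and control were fitted in R 4.3.3 with limma 3.58.1 (lmFit, eBayes, two-sided), with Benjamini-Hochberg adjustment over all 18416 expressed probe sets and no minimum fold. The fit was tested on simulated data. SAM, the spreadsheet test of the methods, was not run, and the exact Wilcoxon rank sum test was used as an alternative.

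Values per retina are given for genes that passed the test and for the 5 others with the largest differences, with exceptions named. The genes, lists and tests were chosen with earlier results of these data known. Alternatives covered the filter, normalization, weights, covariates, probe set choice, the replicate block and the dogs included. Arrays have no read depth, and their number limits the precision.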

Additional observations from a re-analysis of the deposited data

Results flagged for a closer look

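Within a group of 5 retinas, the gap between an extreme retina and its nearest neighbour was divided by the range of the group and compared with Dixon's 95% critical value, which chance alone exceeds in about 1 in 20 groups. Of 68 tests (34 genes in 2 groups), 8 exceeded it. In glaucoma there were 5, and in each the younger Shiba Inu was lowest: PRPH2 (ratio 0.773, log2 intensity 10.96), PROM1 (0.792, 10.15), RCVRN (0.774, 10.46), IMPG2 (0.886, 8.52) and CCDC66, a ciliary protein (0.714, 7.74). Among the controls there were 3. Control 1 was lowest for AIPL1 (ratio 0.711, log2 intensity 8.16) and for the BBSome subunit TTC8 (0.759, 10.14), and control 5 was highest for GUCY2D (0.72, 8.0).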

How the results depend on the processing

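SLC4A3 was lower under every limma alternative run, with differences between -1.28 and -1.11 as each dog was left out. The count of lower genes was 1 with a 2-fold minimum, with age or the 3' to 5' ratio as a covariate and without both Shiba Inus, 5 with array weights and 7 without both Basset Hounds. It ranged from 1 to 4 as each dog was left out, with 1 without the Dalmatian or control 5 and 4 without the younger Basset Hound. For lower probe sets of the set, the count was 1 with the 2-fold minimum, with age, with the ratio and without both Shiba Inus. It was 6 with array weights, 10 without both Basset Hounds and 1 to 6 as each dog was left out. The shares of all probe sets in these settings were not counted. Higher genes and higher probe sets each numbered 0 to 1 as each dog was left out (1 without the younger Shiba Inu) and 1 without the pigment-epithelium-rich retinas, the younger Shiba Inu and control 4, an alternative chosen after seeing the data. The exact Wilcoxon rank sum test gave 0 lower genes and 0 lower probe sets in the set. With 5 retinas per group its smallest p was 0.00794, and its smallest adjusted p was 0.0534. Thus 0 probe sets of the whole array passed, and this test could not set the members apart. At an unadjusted p under 0.05 it called 5 genes of the set lower (BBS4, CRX, IQCB1, SLC4A3 and STK38L). The share of all genes at that threshold was not counted, so this count cannot be set against the whole array. Replicate numbers in the labels did not pair the samples (correlations of same-numbered deviations from -0.243 to 0.069). With the replicate number as a block, 1 gene of the set, SLC4A3, and 1 probe set were lower, beside 424 of all 7900 genes. The median difference of the set was -0.26 with array weights, -0.81 with age as a covariate, -0.21 without both Shiba Inus, -0.76 without both Basset Hounds, -0.20 without the pigment-epithelium-rich retinas and -0.59 to -0.17 as each dog was left out. Signs turned for genes that did not pass. With arrays centred, CRB1 was 0.009. With array weights, SPATA7 was 0.013, CCDC66 0.22, AIPL1 0.027, RPGR 0.15, CRB1 0.12 and GUCY2D 0.077. With age, IMPG2 was -0.66, ADAM9 0.43, CRB1 0.019 and RP2 0.23. With the 3' to 5' ratio, BBS2 was -0.047, CCDC66 0.054 and RPGR 0.027. Without both Shiba Inus, PROM1 was 0.044, CCDC66 0.22, RPGR 0.14, CRB1 0.10 and GUCY2D 0.050. Without both Basset Hounds, IMPG2 was -0.30, BBS2 -0.024 and ROM1 -0.11. Without the pigment-epithelium-rich retinas, PROM1 was 0.051, CCDC66 0.26, SPATA7 0.037, AIPL1 0.16, RPGR 0.062 and GUCY2D 0.074. As each dog was left out, PROM1 ranged from -0.56 to 0.070, CCDC66 from -0.30 to 0.25, AIPL1 from -0.60 to 0.12, RPGR from -0.27 to 0.11, GUCY2D from -0.48 to 0.088, CRB1 from -0.10 to 0.069, IMPG2 from -0.11 to 0.68 and BBS2 from -0.052 to 0.095. The cause of these changes was not tested. The planned motif search in promoters was not run.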
